A study of Homo sapiens with 6 samples.

Results

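The SLIT-ROBO and netrin guidance genes described here are SLIT2, SLIT3, ROBO1, ROBO2, NEO1, UNC5B, NTN1, NTN4, SRGAP1 and SRGAP2, that is 10 of the 58735 genes in the deposited count table, found by their symbols. They were chosen by results of the same contrast, treated against control libraries, with earlier values in view in which SLIT2 was already among the larger falls. Their fold changes and p-values are therefore given as a description of these libraries and support nothing further. The libraries hold polyadenylated RNA of SW1990, an established pancreatic ductal adenocarcinoma cell line, and the series asked which genes differ in expression under DOT1L inhibition. DOT1L is an enzyme that methylates histone H3 along genes being transcribed. The treated group, 3 libraries, received 5 µM EPZ-5676, a DOT1L inhibitor. The control group, also 3 libraries, is called untreated in the sample characteristics and is given DMSO, the solvent, in the treatment protocol. How long the cells were treated is not stated in the labels. Nothing in the labels says that the replicates were separate cultures, so p-values measure no more than the spread among these libraries, and that spread may be technical.

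SLIT proteins are secreted glycoproteins that bind ROBO receptors on axons and migrating cells, usually as a repellent cue. Slit-Robo GTPase-activating proteins (srGAPs) bind the cytoplasmic tail of ROBO receptors and switch small GTPases of the cytoskeleton off. Netrins are laminin-related secreted proteins read by DCC, neogenin and the UNC5 receptors, and axon guidance genes, SLIT and ROBO genes among them, are recurrently altered in pancreatic ductal adenocarcinoma.

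The 250 bases before the start had a GC content of 77.2% for SLIT2 and 71.6% for NEO1. It was lower, 48% and 56.8%, before the 2 starts of ROBO1. SLIT2 and NEO1 are shown because they were the 2 members past the test threshold, and ROBO1 because it encodes the one of the 2 ROBO receptors in the set that was detected. The sequences are from a set of RefSeq starts on GRCh38.p14 that held 8 of the 10 genes, without UNC5B and NTN1. Each is written 5′ to 3′ on the gene's strand with every CG in capitals. The SLIT2 window is chr4:20251655-20251904 (plus strand), the 250 bases before the RefSeq start. It lies upstream of the gene model of the count table, which begins at 20253260. The NEO1 stretch is chr15:73051652-73051709 (plus strand), the part of its 250-base window outside the gene model. The ROBO1 window is chr3:79767999-79768248 (minus strand), before the more distal of 2 RefSeq starts.
SLIT2: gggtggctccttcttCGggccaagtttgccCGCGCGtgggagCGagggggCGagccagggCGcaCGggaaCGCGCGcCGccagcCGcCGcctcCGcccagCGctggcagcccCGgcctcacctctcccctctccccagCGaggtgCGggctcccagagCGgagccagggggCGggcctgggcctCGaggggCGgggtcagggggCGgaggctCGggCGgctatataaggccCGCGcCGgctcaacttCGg
NEO1: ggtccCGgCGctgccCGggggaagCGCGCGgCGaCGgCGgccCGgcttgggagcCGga
ROBO1: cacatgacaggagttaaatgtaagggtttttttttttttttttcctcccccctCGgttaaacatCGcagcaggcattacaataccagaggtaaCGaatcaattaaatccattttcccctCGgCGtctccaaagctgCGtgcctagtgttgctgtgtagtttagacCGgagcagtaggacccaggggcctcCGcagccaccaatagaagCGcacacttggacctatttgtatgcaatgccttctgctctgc
The SLIT2 window held 30 CG pairs, and 12.4% of all 35116 RefSeq windows of 250 bases held at least as many. The whole NEO1 window held 28 (15.9% of windows held as many) and the ROBO1 window shown 9 (54.1%), against a median of 11 over all windows. The window before the other ROBO1 start held 12, and NTN4 had 20 and 36 before its 2 starts. These counts describe the letters alone, since no chromatin mark or binding was measured.

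All libraries were of like depth, with 33970420 to 39749648 reads assigned to genes. On the first principal component of the 500 most variable genes (35.41% of the variance), controls lay at -19.8 to -11.0. EPZ-5676 replicates 1, 2 and 3 lay at 28.4, 9.69 and 6.84. On the second (20.35%), EPZ-5676 replicate 1 (17.8) lay far from replicates 2 (-18.9) and 3 (-14.1) of its group. The median chi-square per gene between 2 libraries was 8.77 for control replicates 1 and 2. It was 8.47 for control replicate 2 with EPZ-5676 replicate 2, and 9.395 to 35.275 for the other control and treated pairs. Of the ductal epithelial markers, KRT7, KRT8 and KRT18 were abundant, but CDH1 (E-cadherin) had 0 reads in all 6 libraries and KRT19 had 8 to 26 reads, a level made uncertain by its processed pseudogenes, since how reads shared with such copies were counted is not known. EPCAM was also low, with 50 to 103 reads in controls and 23 to 54 in treated libraries. MUC1 had 904 to 1579 reads and SOX9 551 to 948. KRT8 (log2 fold change 0.37), KRT18 (0.32) and SOX9 (0.47) were called higher as counted. After the correction for GC content and length described below, SOX9 alone was (0.45, adjusted p 0.0228). The 5 acinar markers had 0 reads. Markers of fibroblasts and stellate cells were present, with a summed level of 83.9 to 93.7 CPM (counts scaled to the library total) in controls and 93.9 to 100.01 in treated libraries. Single genes of that list went opposite ways as counted, with COL1A1 called higher (log2 fold change 0.48) and DCN (-0.46) and LUM (-1.04) lower. None of these was called after the correction for GC content and length, with COL1A1 at 0.12, DCN at 0.07 and LUM at -0.50. COL3A1 of the same list had 10 to 18 reads. PTPRC, a leukocyte gene, had 153 reads in control replicate 2, 8 in EPZ-5676 replicate 2 and 0 elsewhere. Summed markers of neurons and glia, mostly MBP with S100B at 0, were 9.73 to 14.1 CPM in controls and 7.71 to 8.49 in treated libraries. The part of any of these in the results below was not tested.

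Among the genes, the transcript of the secreted ligand SLIT2 was lower and that of the netrin and RGM receptor neogenin (NEO1) was higher in EPZ-5676-treated cells, and no other member passed the test threshold in either direction. Of the 10 genes, 8 had enough reads to be tested, 1 was called lower and 1 higher at a Benjamini-Hochberg adjusted p under 0.05. Over all 15496 genes tested, 18.7% were called lower and 15.0% higher in the same comparison. The median log2 fold change was 0.01 over the 8 tested members and -0.05 over all genes tested. All treated libraries lay below all controls for SLIT2 and NTN4 and above them for NEO1, and over all genes tested this held for 24.2% (below) and 21.8% (above). The 2 members with too few reads, SLIT3 and ROBO2, are described below by their reads.

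**Figure D1:**
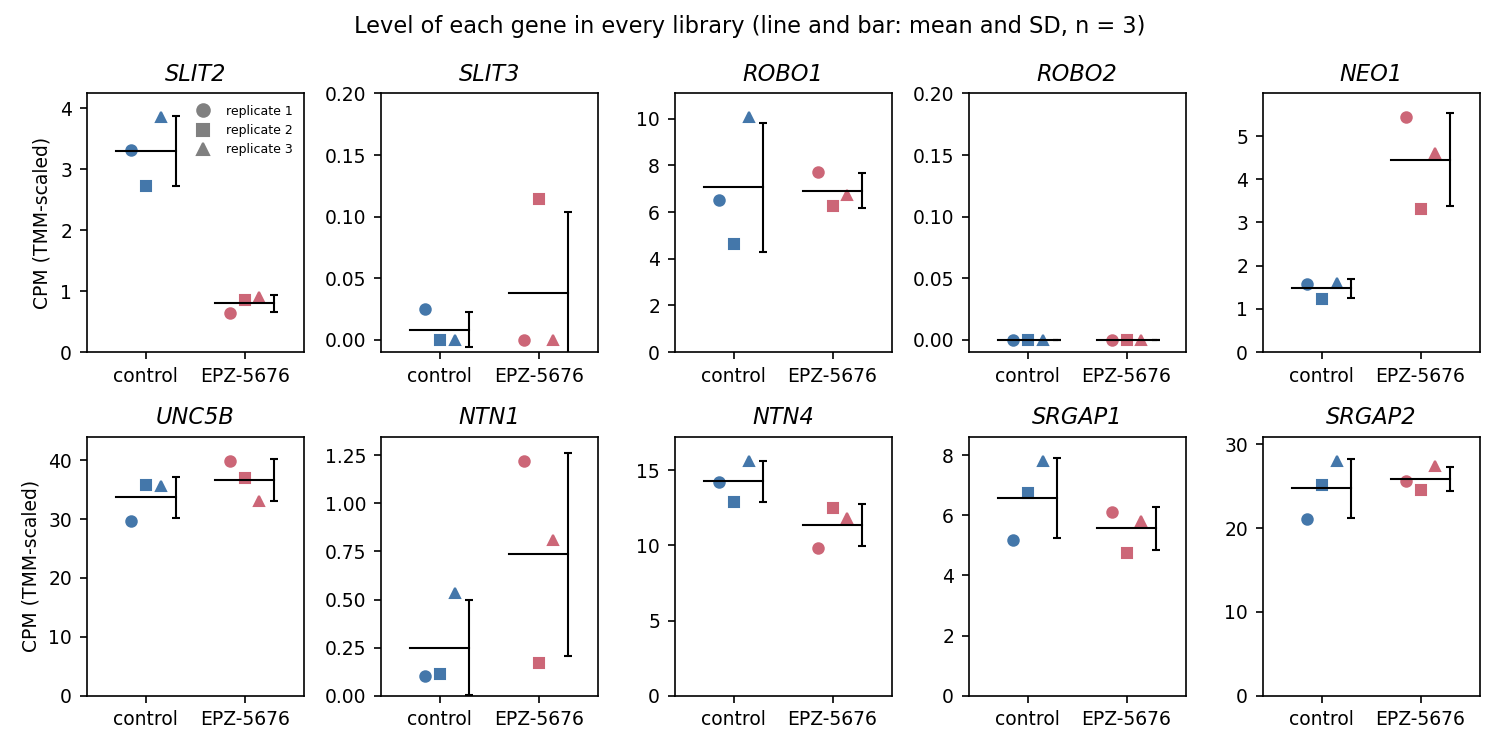
Level of each of the 10 genes in every library, in CPM scaled by the trimmed mean of M-values (TMM), with controls in blue and EPZ-5676 in red; symbols mark the replicate number, and the line and bar give the mean and SD of 3 libraries. All 3 treated libraries lie below all 3 controls for SLIT2 and NTN4 and above them for NEO1, and ROBO2 is at 0 throughout.

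SLIT2 encodes the secreted ligand of ROBO receptors. The gene (ENSG00000145147) lies at chr4:20253260-20620561 on the plus strand in GRCh38 and spans 367 kb with 37 exons in its longest transcript. It had 132, 95 and 144 reads in the controls and 20, 30 and 36 in the treated libraries, which is 3.32, 2.72 and 3.86 CPM against 0.644, 0.855 and 0.910 CPM. Every treated library was below every control, and the gap between the groups was wider than the range of either. The mean level was 3.30 ± 0.570 CPM in controls and 0.803 ± 0.141 in treated libraries (SD, n = 3 each). SLIT2 was 4.08-fold lower after treatment, a log2 fold change of -2.03 ± 0.34 (SE; 95% interval -2.73 to -1.33), with an adjusted p of 0.00029. It ranked number 49 from the lowest of the 15496 fold changes. In bulk RNA, fewer expressing cells and less SLIT2 RNA per cell cannot be told apart. The relative SD was 17.3% in controls and 17.5% in treated libraries. Without EPZ-5676 replicate 1, which had the lowest SLIT2 level, the log2 fold change was -1.90.

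SLIT3, the other SLIT ligand in the set, was at the edge of detection. Its gene had 1, 0 and 0 reads in controls and 0, 4 and 0 in treated libraries, too few for a test, and no fold is given. A count of 0 allows up to 3 reads, which is 0.0754 to 0.0966 CPM depending on the library, and this limit covers counting error only. SLIT1, the remaining SLIT gene, had 0 to 8 reads, so SLIT2 was the one SLIT transcript with more than 8 reads in any library.

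The netrin ligands were led by NTN4, which encodes netrin-4, a basement membrane netrin. NTN4 had 566, 451 and 584 reads in controls and 305, 438 and 468 in treated libraries, or 14.2, 12.9 and 15.7 CPM against 9.82, 12.5 and 11.8. The groups did not overlap, but the highest treated library and the lowest control lay close together, at 12.5 and 12.9 CPM, closer than the range of either group. The log2 fold change of NTN4 was -0.33 ± 0.17 (SE; 95% interval -0.67 to 0.02), and the adjusted p of 0.141 did not pass the threshold. Without EPZ-5676 replicate 1, the library with the lowest NTN4 level, it was -0.23.

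NTN1 encodes netrin-1, the founding ligand of the family, and had few reads. Its counts were 4, 4 and 20 in controls and 38, 6 and 32 in treated libraries. The groups overlapped, since control replicate 3 was above EPZ-5676 replicate 2. The log2 fold change of 1.53 ± 0.79 had a 95% interval of -0.11 to 3.17 and an adjusted p of 0.140, and this interval holds both no change and a large rise. Single libraries moved it most: it was 2.73 without control replicate 3 and 0.97 without EPZ-5676 replicate 1.

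Of the SLIT receptors, ROBO1 was detected and ROBO2 was not. ROBO1 had 259, 162 and 376 reads in controls and 240, 220 and 267 in treated libraries, which is 6.51, 4.64 and 10.1 CPM against 7.73, 6.27 and 6.75. All treated values fell inside the range of the controls, whose relative SD of 39.1% was the largest among the tested members other than NTN1. The log2 fold change was -0.03 ± 0.24 (95% interval -0.54 to 0.47, adjusted p 0.928), and its sign changed with the scaling method. ROBO2 had 0 reads in all 6 libraries, while AC026877.1, a gene overlapping it on the same strand, had 7 to 30.

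NEO1 encodes neogenin, a receptor for netrins and for repulsive guidance molecules (RGMs). The gene (ENSG00000067141) lies at chr15:73051710-73305206 on the plus strand and spans 253 kb. It had 63, 43 and 60 reads in controls and 169, 116 and 182 in treated libraries, which is 1.58, 1.23 and 1.61 CPM against 5.44, 3.31 and 4.60. Every treated library was above every control, and the lowest of them, EPZ-5676 replicate 2, was still above the highest control. The mean was 1.47 ± 0.211 CPM in controls and 4.45 ± 1.08 in treated libraries (SD, n = 3 each). NEO1 was 3.01-fold higher, with a log2 fold change of 1.59 ± 0.30 (SE; 95% interval 0.97 to 2.203), an adjusted p of 0.000648, and number 103 from the highest of all fold changes. Without EPZ-5676 replicate 1, which had the highest NEO1 level, the log2 fold change was 1.42.

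UNC5B, the other netrin receptor in the set, encodes a receptor that signals repulsion and can trigger cell death when its ligand is absent. It was the most abundant member per length in both groups. Its levels were 29.7, 35.7 and 35.7 CPM in controls and 39.9, 37.0 and 33.0 in treated libraries, from 1180 to 1331 reads each, and the groups overlapped. The log2 fold change was 0.12 ± 0.13 (95% interval -0.15 to 0.39, adjusted p 0.503). As a share of the length-scaled reads of NEO1 and UNC5B together, NEO1 made up 4.31%, 2.82% and 3.66% in controls and 10.3%, 7.01% and 10.5% in treated libraries. That is 3.60 ± 0.745% against 9.27 ± 1.96% (SD, n = 3 each), so UNC5B remained the more abundant of the 2 receptor transcripts in every library. The shares rest on the same values that chose the genes and carry no test.

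The intracellular partners SRGAP1 and SRGAP2 encode srGAPs, which act on small GTPases downstream of ROBO receptors. SRGAP1 had 206, 236 and 292 reads in controls and 190, 167 and 230 in treated libraries, with a log2 fold change of -0.24 ± 0.22 (95% interval -0.70 to 0.22, adjusted p 0.426). SRGAP2 had 836, 878 and 1047 reads against 795, 861 and 1084, with a log2 fold change of 0.06 ± 0.14 (95% interval -0.23 to 0.36, adjusted p 0.765). The groups overlapped for both. The share of SRGAP1 in their joint length-scaled level was 13.5 ± 0.734% in controls and 11.2 ± 1.05% in treated libraries. With the longest transcript as the length in place of the length in the table, these shares were 6.67% and 5.49%, so the share depends on the length used.

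SRGAP2 has partial human-specific copies, which makes its counts less certain. Of the 100-base windows of its longest transcript, 16.5% occurred exactly in another gene, against 67.3% for SRGAP2B, 61.3% for SRGAP2C and 93.1% for the pseudogene SRGAP2D. The other 9 members shared none. Reads from such windows could have been split between the copies or dropped. SRGAP2C was called lower (log2 fold change -0.91 ± 0.26, adjusted p 0.0112), with 218, 162 and 278 reads in controls and 73, 109 and 152 in treated libraries. After the correction for GC content and length described below, it was not (-0.45, adjusted p 0.229). SRGAP2B (-0.15) and SRGAP2D (-0.92, adjusted p 0.138) did not pass. FAM72A overlaps SRGAP2 on the opposite strand and had 52 to 158 reads, a fraction of those of SRGAP2, and the labels do not say whether the counting used strand. At NTN4 the opposite-strand gene PGAM1P5 had at most 10 reads.

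**Figure D2:**
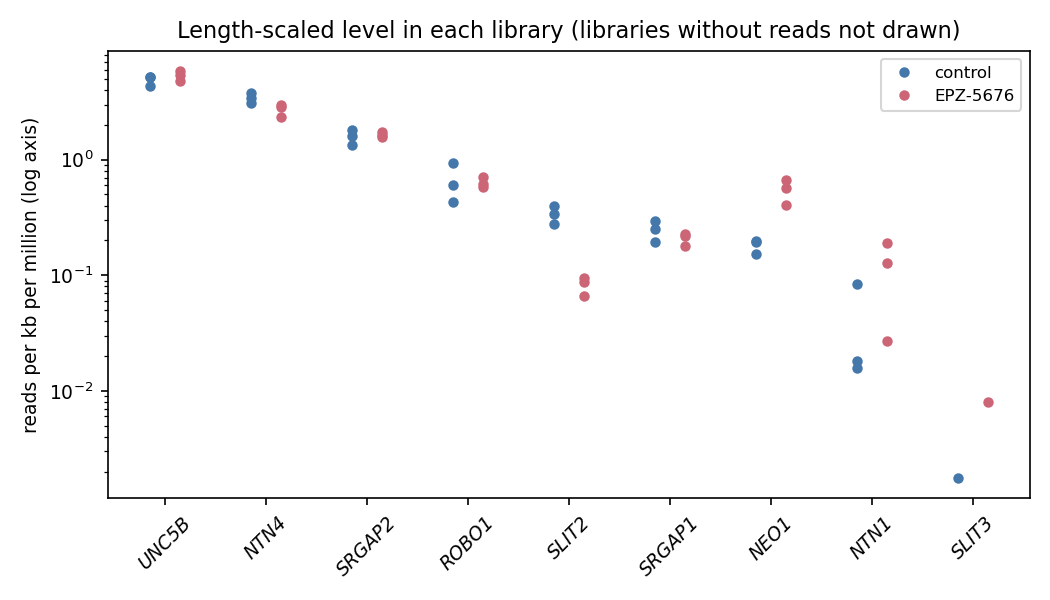
RPKM, the CPM divided by gene length in kb, for each gene in each library on a log axis, ordered by the control mean, with controls in blue and EPZ-5676 in red; libraries without reads are not drawn, which leaves out ROBO2. By the mean, SLIT2 moves from the fifth place in controls to below NTN1 in treated libraries, and NEO1 moves up to beside ROBO1. In EPZ-5676 replicate 2, SLIT2 is above NTN1.

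Scaled per kb of gene length, the order of the genes in controls was UNC5B (mean RPKM 4.93), NTN4 (3.42), SRGAP2 (1.58), ROBO1 (0.651), SLIT2 (0.340), SRGAP1 (0.247), NEO1 (0.182) and NTN1 (0.0392). The first 4 did not overlap with their neighbours over the 3 controls. SLIT2 overlapped with SRGAP1, and SRGAP1 with NEO1. In treated libraries the order was UNC5B (5.36), NTN4 (2.73), SRGAP2 (1.65), ROBO1 (0.636), NEO1 (0.548), SRGAP1 (0.209), NTN1 (0.115) and SLIT2 (0.0827). There NEO1 overlapped with ROBO1, and NTN1 with both SRGAP1 and SLIT2. The 4 most abundant transcripts kept their places, whereas SLIT2 went from above to below NEO1.

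Fold changes across all genes moved with base composition and gene span in these libraries, and the members sit at different points of that trend. The median log2 fold change was -0.58 in the decile of genes with the lowest transcript GC content and 0.43 in the decile with the highest. SLIT2, at 44.5% GC, was in a decile with a median of -0.30, against its own -2.03. ROBO1, NEO1, NTN4 and SRGAP2 shared a decile with a median of -0.15, far below the 1.59 of NEO1. UNC5B (60.2% GC) lay below its decile's median of 0.35, and SRGAP1 (42.8% GC) above its decile's median of -0.45. By genomic span, 6 of the 8 tested members were in the decile of longest genes, 143 kb and over, where the median was -0.31. Among the 299 tested genes at least as long as SLIT2, 64 were called lower and 15 higher as counted. Over all 15496 genes tested, 18.7% were called lower and 15.0% higher. After the correction described below, the median of the decile of longest genes was -0.05.

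**Figure D3:**
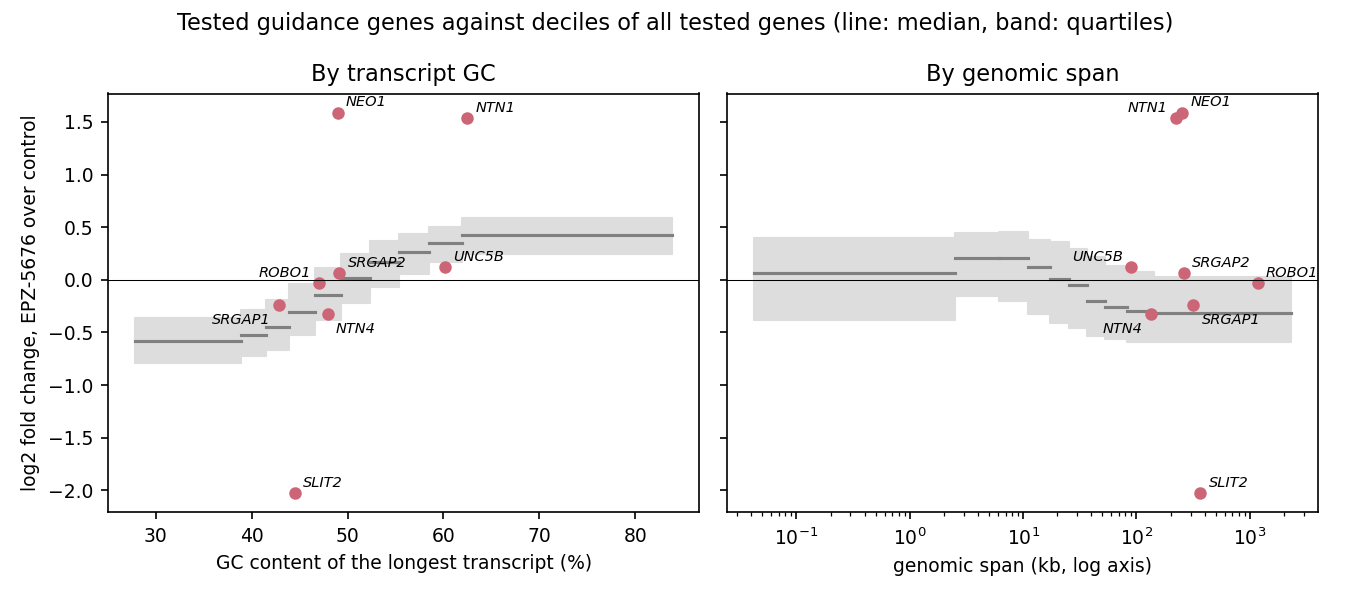
Log2 fold change of the 8 tested guidance genes (red) against transcript GC content (left) and genomic span on a log axis (right), over the deciles of all tested genes, with grey lines for the median and bands for the quartiles. SLIT2 at -2.03 lies below, and NEO1 at 1.59 and NTN1 at 1.53 lie above the quartile band of their deciles in both panels.

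With each library's smooth trend on transcript GC content and length removed, SLIT2 stayed lower (-1.71 ± 0.32, adjusted p 0.00123) and NEO1 higher (1.68 ± 0.29, adjusted p 0.000601). These were again 1 member lower and 1 higher, where 5.58% of all genes tested were called lower and 5.40% higher after the correction. NTN4 was at -0.20 (adjusted p 0.423) and NTN1 at 1.15 (adjusted p 0.393). The signs of 3 members that did not pass changed: ROBO1 went to 0.17, SRGAP1 to 0.25 and UNC5B to -0.22. A treatment effect tied to base composition or length would be removed together with a technical trend, and these cannot be told apart here. SLIT2 and NEO1 passed the threshold in all 24 alternatives, with log2 fold changes of -2.13 to -1.63 and 1.42 to 1.86. Without EPZ-5676 replicate 1 and with no correction, the log2 fold change was -0.12 for ROBO1, 0.05 for UNC5B, -0.31 for SRGAP1 and 0.07 for SRGAP2, besides the 0.97 for NTN1 and -0.23 for NTN4 given above.

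**Figure D4:**
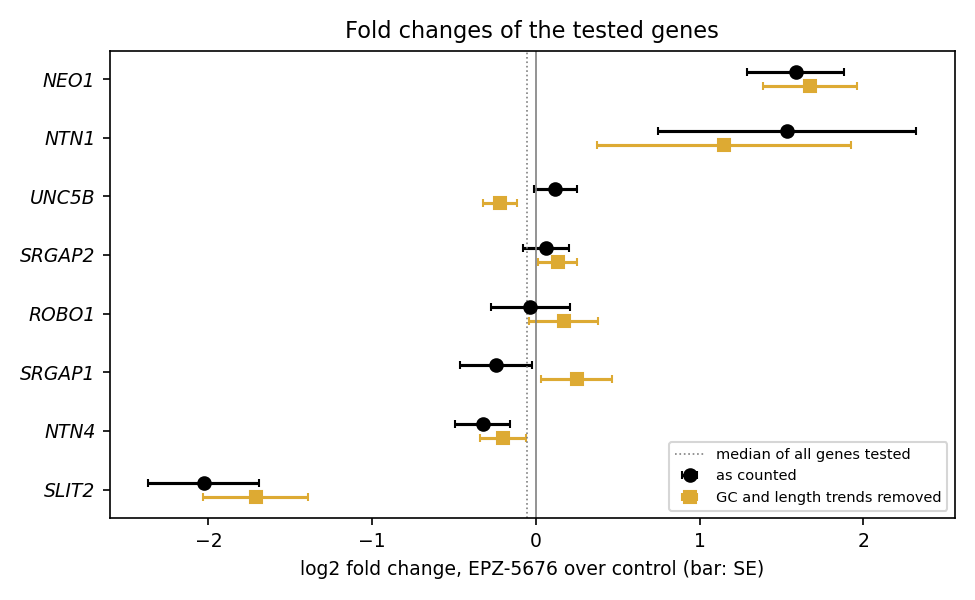
Log2 fold change of the 8 tested guidance genes as counted (black) and with GC and length trends removed (yellow), with SE bars; the dotted line is the median of all genes tested, -0.05. SLIT2 and NEO1 are far from 0 in both, while UNC5B, ROBO1 and SRGAP1 change side.

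The genes whose pattern over the 6 libraries was most like that of SLIT2, among 10761 protein-coding genes with a mean of at least 1 on the log2 CPM scale, were STX7 (Pearson r 0.998), SAV1 (0.998), RFC5 (0.998), ROCK2 (0.997) and NSD2 (0.997). The correlation is a description over 6 libraries that fall into 2 groups, so any gene that differs cleanly between the groups can rank high. All 5 changed less than SLIT2. ROCK2, a kinase that acts on the actin cytoskeleton, had a log2 fold change of -0.75 and RFC5, a replication factor C subunit, of -0.23, which did not pass (adjusted p 0.102). NSD2 (-0.51), STX7 (-0.60) and SAV1 (-0.44) were called lower as counted. After the correction for GC content and length, NSD2 was still called (-0.25, adjusted p 0.0363). ROCK2 (-0.23, adjusted p 0.399), STX7 (0.00713) and SAV1 (-0.0467) then did not pass, and RFC5 was at 0.08. Among the members, NTN4 was the most like SLIT2 (r 0.88) and NEO1 the least (-0.94), with ROBO1 at 0.05. NTN1 was too low to be compared.

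The other genes of the pathways were taken from lists of 65 genes, of which 50 were tested, 11 called lower and 7 higher, where 18.7% and 15.0% of all genes tested were called. Their median log2 fold change was 0.06, against -0.05 over all genes tested. After the correction for GC content and length, 3 were called lower and 4 higher, and CAP1 and DAPK1 alone were called in both analyses in the same direction. The corrected calls were CAP1, ABL1 and TRIO lower, and EXT1, RAC1, RHOA and DAPK1 higher, TRIO being named after its values were seen.

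Of the 14 other genes of the ligand, receptor and srGAP families, 4 were tested and ROBO3 was called higher. Over all genes tested, 18.7% were called lower and 15.0% higher. ROBO3, a divergent ROBO receptor, rose from 3.78 ± 0.560 to 6.64 ± 0.583 CPM (log2 fold change 0.81 ± 0.23, adjusted p 0.00939). All treated libraries were above all controls, as held for 21.8% of all genes tested. ROBO3 was not called after the correction (0.39, adjusted p 0.284). Per length, the mean level of ROBO3 was 0.538 RPKM in controls and 0.945 in treated libraries, against 0.651 and 0.636 for ROBO1. In a pair chosen after the values were seen, ROBO1 made up 49.3%, 48.3% and 63.1% of their joint length-scaled level in controls and 42.2%, 40.4% and 38.0% in treated libraries, so ROBO3 was the higher in 2 of 3 controls as well as in all 3 treated libraries. SRGAP3 (0.63), NTN3 (0.66) and ROBO4 (-0.14) did not pass. The netrin receptors DCC, UNC5C and UNC5D had 0 reads in every library. UNC5A had 6, 6 and 2 reads in controls and 20, 18 and 2 in treated libraries, too few for a test. Among DCC, neogenin and the UNC5 receptors, NEO1 and UNC5B alone had more than 20 reads in any library. Of the RGM ligands of neogenin, RGMB was at 2.202 ± 0.227 CPM in controls and 2.32 ± 0.328 in treated libraries. RGMA (0.84 ± 0.67, adjusted p 0.360) was high in EPZ-5676 replicate 2 alone, with 50 reads against 12 to 17 elsewhere. LRIG2, which protects neogenin from shedding, was at -0.56 ± 0.27 (adjusted p 0.117). Neither of the FLRT genes tested, FLRT2 and FLRT3, which encode membrane proteins that bind UNC5 receptors, passed.

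At the cell surface, 10 genes for binding or processing of SLIT and ROBO proteins were tested, with 2 called lower and 2 higher. Over all genes tested, 18.7% were called lower and 15.0% higher, so these counts lie near the shares of all genes. The metalloprotease ADAM10 (-0.74 ± 0.22, adjusted p 0.0137), which sheds membrane proteins, and the deubiquitinase USP33 (-0.57 ± 0.16, adjusted p 0.0081), which binds ROBO1, were lower. The heparan sulfate carriers GPC1 (0.43 ± 0.11, adjusted p 0.006) and SDC1 (0.37 ± 0.10, adjusted p 0.00743) were higher. Heparan sulfate assists the binding of SLIT to ROBO. None of these 4 was called after the correction, where GPC1 was at -0.03 and USP33 at -0.06. EXT1, a heparan sulfate polymerase gene, was not called as counted (0.03) and was called higher after the correction (0.39, adjusted p 0.0148).

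Of the 23 cytoplasmic effectors tested, 7 were called lower and 3 higher, with a median of -0.18, beside the 18.7% and 15.0% called over all genes. After the correction, 3 were called lower and 2 higher, with a median of -0.05, beside 5.58% and 5.40% of all genes. The actin regulator CAP1 was lower at 97.8 ± 8.97 CPM against 148 ± 15.5 in controls (-0.60 ± 0.11, adjusted p 0.000507). It passed in all 24 alternatives. The kinases ABL2 (-0.66) and PAK2 (-0.48) and the adaptor NCK1 (-0.72) were also lower, and SRC (0.52), MYO9B (0.29) and ARHGAP39 (0.40) were higher, but none of these 6 was called after the correction. The GTPases RHOA (0.14) and RAC1 (-0.05), targets of the pathway, did not pass as counted. After the correction, RHOA (0.27, adjusted p 0.0436) and RAC1 (0.25, adjusted p 0.0411) were called higher. CDC42, a GTPase that srGAP1 acts on, is named after its values were seen. It had 18 to 32 reads, but it has processed pseudogenes to which its reads may have been split or at which they may have been dropped, so its level is uncertain.

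Among the genes tied to the death signal of netrin dependence receptors, DAPK1 was called higher, where 15.0% of all genes tested were. DAPK1, a kinase that binds UNC5 receptors, had 158, 150 and 145 reads in controls and 273, 323 and 342 in treated libraries. All treated libraries were above all controls, as held for 21.8% of all genes tested. The log2 fold change of 1.13 ± 0.20 (adjusted p 0.000485) was 1.03 after the correction (adjusted p 0.000794). APPL1 (-0.31), MAGED1 (0.24) and CASP9 (0.28) did not pass.

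**Figure D5:**
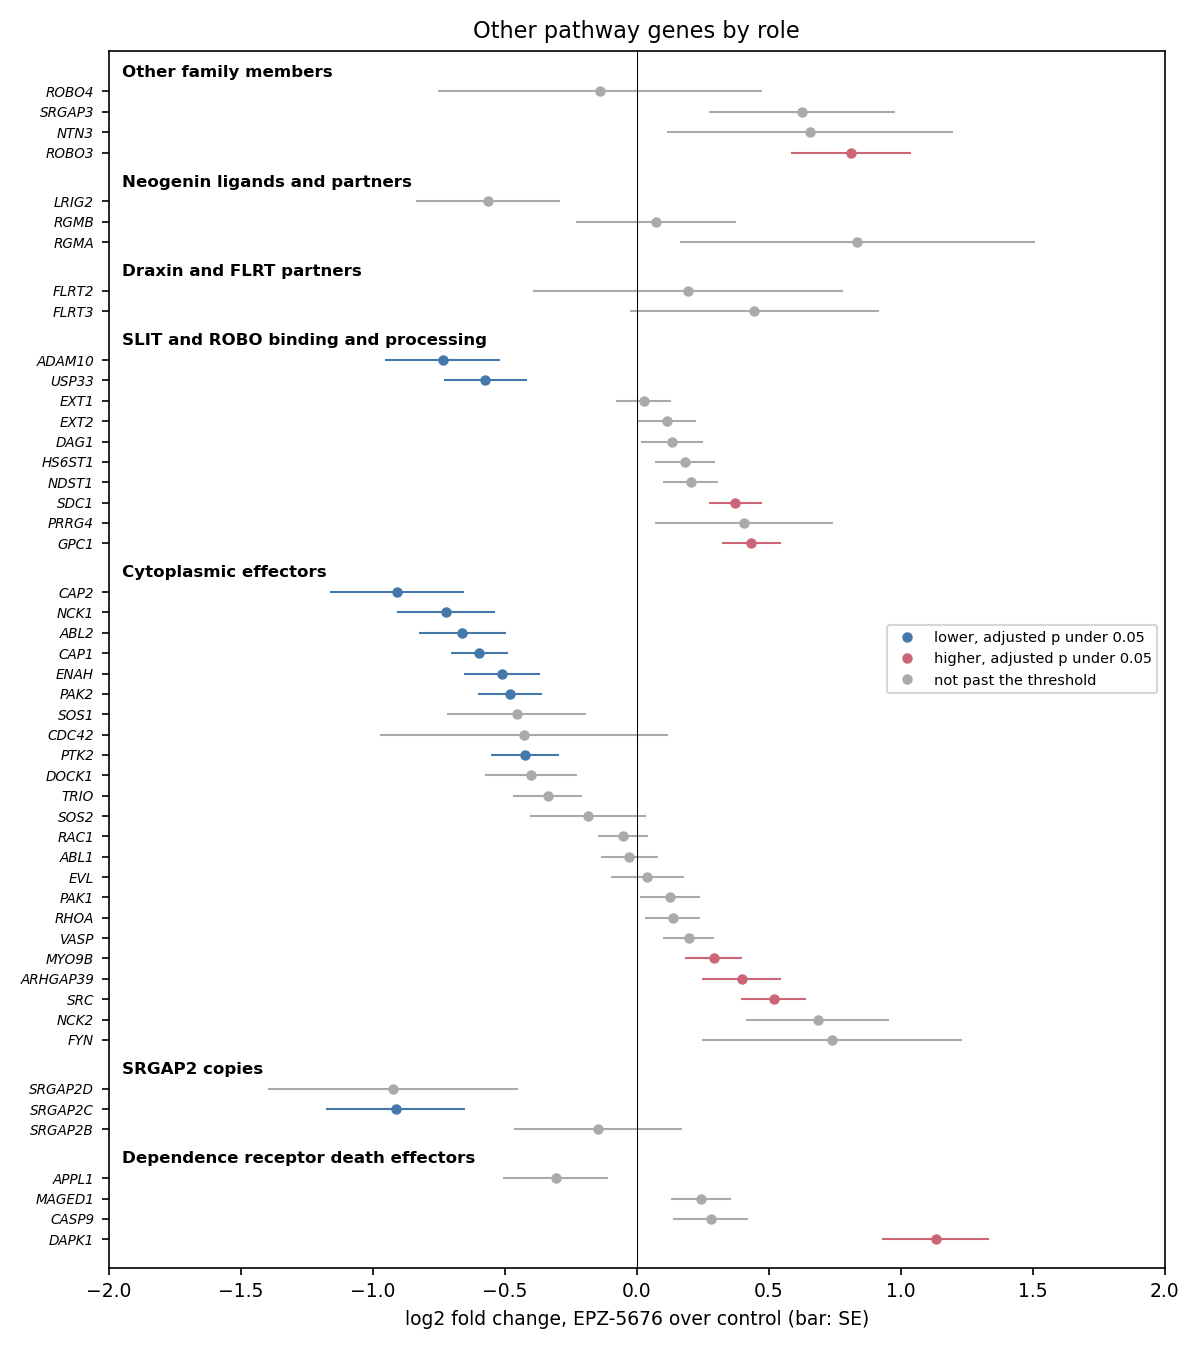
Log2 fold change of the tested pathway genes with SE bars, grouped by role, in blue where called lower, red where called higher and grey where not past the threshold; 1 gene that is not reported is not drawn. The 7 lower effectors run from CAP2 at -0.91 to PTK2 at -0.42, and DAPK1 at 1.13 is the highest point. CAP2 and PTK2 are named as the ends of that range, after their values were seen.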

How the data were processed

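RNA-seq was analysed for 6 libraries of SW1990 cells, 3 controls and 3 with 5 µM EPZ-5676, grouped by their titles. Per the labels' protocols, RNA was extracted with TRIzol, mRNA was selected on oligo(dT) beads, and dUTP marked the second strand. Per the submitters' processing notes, HISAT2 2.2.1 and GRCh38 were used. The authors deposited whole-number read counts per gene, not normalized. The counter, its use of strand and its annotation were not given in the sources used here. Every one of the 58735 genes carried the coordinates of GENCODE release 29, used for transcript GC content, length and exons.

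The tests used edgeR 4.0.16 (R 4.3.3): filterByExpr (minimum count 10), TMM scaling, robust dispersions, the two-sided quasi-likelihood test over 15496 genes and a Benjamini-Hochberg adjusted p under 0.05. Every library enters every fit unless stated. The SE was taken from the F statistic, as the log2 fold change over its root. CPM uses TMM-scaled totals, and levels per kb use the length column of the table. The GC and length correction fitted a natural spline (5 degrees of freedom) to each library's deviation of log2 CPM (prior count 2) from the gene mean and entered it as an offset. For 15487 tested genes a GC value was available. The test script was checked on simulated data.

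Alternatives were RLE and upper-quartile scaling, no filter, a minimum count of 50, protein-coding genes alone, DESeq2 1.42.0, limma-voom 3.58.1, a replicate block, the corrections, and each library left out. The members, gene lists, tests and corrections were chosen with earlier results of these data known. All 10 members are named. From each pathway list the called genes with the smallest p (up to 4 in each direction) and up to 3 of the most expressed uncalled genes could be named. For lists of 5 or fewer, every gene could be. SLIT1, DCC, UNC5A, UNC5C and UNC5D, which had too few reads for a test, are named outside this rule. Other pathway genes are said to be named after their values were seen. An exact permutation test planned for the family shares is not given, since it would reuse the contrast that chose the genes. Promoter sequences came from RefSeq (GRCh38.p14). Figures used Python 3.11.15 and matplotlib 3.10.9. The result of 1 pathway gene is not reported here, though it stays in the counts.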

Additional observations from a re-analysis of the deposited data

How the results depend on the processing

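The calls of SLIT2 (lower) and NEO1 (higher) held in all 24 alternatives run, with adjusted p up to 0.00973 and 0.00768, and no other member was called in any. DESeq2 gave NTN1 no adjusted p, and with a minimum count of 50 NTN1 was not tested. With few reads, NTN1 and SLIT3 are limited by depth. RLE and upper-quartile scaling and the tools moved the median of all genes by less than 0.1.

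Counts of calls were lowest where the GC trend was removed. Among fits of all libraries, more genes were called higher than lower with the length trend alone removed. By a smaller margin, this also held with the GC correction, with the replicate block and both corrections, and with DESeq2 (2715 lower and 2783 higher). Called lower and higher over all genes (2899 and 2326 as counted) were 730 and 762 with the GC correction, 2228 and 2784 with the length correction, 864 and 837 with both corrections, and 685 and 689 with the replicate block and both. Leaving out single libraries, with and without the corrections, gave 512 to 3167 lower and 397 to 2780 higher. Of the pathway genes (11 lower, 7 higher as counted), 2 and 3 were called with GC, 6 and 10 with length, 3 and 4 with both, 3 and 2 with the replicate block and both, and 11 higher with DESeq2; leave-outs gave 2 to 13 lower and 1 to 9 higher. The replicate block alone gave 2219 lower and 1677 higher genes, 11 and 5 pathway genes and the same 1 and 1 members. Same-numbered libraries did not deviate together (correlations -0.111, -0.0927 and 0.0466), and of the 3 pairs only the third correlated best with its own number. With 3 pairs, this cannot decide whether the numbers pair the samples.

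The log2 fold change changed sign in the cases that follow; the cause was not tested. ROBO1 was 0.0116 with RLE scaling, 0.0282 with the replicate block, 0.0106 with DESeq2, 0.0215 with limma-voom, 0.16 with GC, 0.21 with length, 0.17 with both and 0.21 with the block and both, and -0.24 to 0.44 over the leave-outs. ABL1 was 0.0135 with RLE, 0.14 with length, 0.0118 with DESeq2 and -0.40 to 0.0403 over the leave-outs. In the order GC correction, both corrections, and block with both, UNC5B was -0.22, -0.22 and -0.22, SRGAP1 0.16, 0.25 and 0.26, APPL1 0.26, 0.25 and 0.25, ARHGAP39 -0.0383, -0.0395 and -0.0388, DAG1 -0.0489, -0.0512 and -0.0435, GPC1 -0.0287, -0.0318 and -0.0323, MYO9B -0.0503, -0.0458 and -0.0461, NDST1 -0.0393, -0.0351 and -0.0356, PAK2 0.0296, 0.0266 and 0.0263, RAC1 0.26, 0.25 and 0.25, and SRGAP2B 0.36, 0.37 and 0.21. With length alone, SRGAP1 was 0.16 and SRGAP2B 0.0972.

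Over the leave-outs with and without the corrections, UNC5B ranged from -0.26 to 0.19, SRGAP1 from -0.38 to 0.40, SRGAP2 from -0.0298 to 0.19, APPL1 from -0.48 to 0.35, ARHGAP39 from -0.10 to 0.51, DAG1 from -0.15 to 0.22, GPC1 from -0.0743 to 0.54, MYO9B from -0.0762 to 0.36, NDST1 from -0.0752 to 0.24, PAK2 from -0.54 to 0.10, RAC1 from -0.0633 to 0.29, SRGAP2B from -0.71 to 0.68, ADAM10 from -0.92 to 0.0275, EXT1 from -0.0285 to 0.53, FLRT2 from -0.20 to 1.20, LRIG2 from -0.95 to 0.12, NTN3 from -0.0523 to 0.93, RGMA from -0.43 to 1.20, RGMB from -0.0330 to 0.28, ROBO4 from -0.83 to 0.27 and SDC1 from -0.00132 to 0.45.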
